A study of Mus musculus with 8 samples.

Results

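Metallothioneins are small, cysteine-rich proteins that bind zinc and copper, and zinc transporters move zinc across membranes. The genes described here are 10 of the 53647 listed in the count files, chosen by name: the metallothionein genes Mt1, Mt2 and Mt3, the metal-sensing transcription factor gene Mtf1, 4 genes of the Slc39a (ZIP) family and 2 of the Slc30a (ZnT) family. The choice was made with earlier results of these data known. All 10 were found by their Ensembl identifier, and 9 had enough reads to be tested. Mt3 did not.

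RNA was taken from cultured mouse primary myotubes of wild-type genotype, the fused muscle cells that form from myoblasts. Limb muscle of pups 2 to 3 days old gave the myoblasts, which were differentiated in 5% horse serum. The 4 groups were a control, and myotubes given recombinant IL6, LIF or OSM (oncostatin M) at 250 ng/ml for 48 h, and each group had 2 libraries. All cells were harvested 72 h after differentiation began, per the labels, which do not say whether replicates were separate animals or dishes, so p-values measure only the spread between these libraries. The series concerns OSM in the muscle wasting of cancer, and the groups ask how 3 related cytokines, which share the receptor subunit gp130, change transcription in myotubes.

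ZIP proteins bring zinc into the cytosol from outside the cell or from organelles, and ZnT proteins move it out of the cytosol. When cytosolic zinc rises, MTF1, the protein of Mtf1, binds metal response elements near its target genes, of which the metallothionein genes and Slc30a1 are the standard examples. Metallothionein genes are also known as acute-phase genes that respond to IL6-type cytokines and glucocorticoids in liver, and in skeletal muscle their transcripts are among those raised in several models of atrophy.

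The promoter windows of 4 members show where the metal response element core stands in them, for members that changed and members that did not. The sequences are RefSeq's, on GRCm38.p6, from 250 bases before the transcription start to 50 bases after it, 5′ to 3′ on the gene's strand. Capitals mark each match to the core of the metal response element, TGCACNC or TGCGCNC, on either strand. Mt1 and Mt2 are shown because they had the largest changes, and Slc30a1 because it is the textbook zinc-exporter target of MTF1. Slc30a4 is shown because its window holds as many cores as that of Mt1 and it was not called in any comparison. The windows lie at chr8:94178839-94179138 (Mt1, plus strand), chr8:94172368-94172667 (Mt2, plus strand), chr1:191906531-191906830 (Slc30a1, plus strand) and chr2:122702614-122702913 (Slc30a4, minus strand).
Mt1: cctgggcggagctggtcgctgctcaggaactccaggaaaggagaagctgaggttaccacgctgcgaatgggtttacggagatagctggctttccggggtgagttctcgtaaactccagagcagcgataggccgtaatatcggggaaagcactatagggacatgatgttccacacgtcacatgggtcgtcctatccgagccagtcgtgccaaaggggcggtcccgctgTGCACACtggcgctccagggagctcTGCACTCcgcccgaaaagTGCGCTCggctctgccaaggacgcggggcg
Mt2: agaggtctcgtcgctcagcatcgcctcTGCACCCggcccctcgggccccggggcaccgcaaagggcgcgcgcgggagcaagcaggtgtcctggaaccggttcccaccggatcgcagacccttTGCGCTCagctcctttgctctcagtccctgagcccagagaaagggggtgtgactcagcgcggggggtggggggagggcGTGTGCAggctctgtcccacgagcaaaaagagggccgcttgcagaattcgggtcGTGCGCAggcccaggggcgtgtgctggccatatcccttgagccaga
Slc30a1: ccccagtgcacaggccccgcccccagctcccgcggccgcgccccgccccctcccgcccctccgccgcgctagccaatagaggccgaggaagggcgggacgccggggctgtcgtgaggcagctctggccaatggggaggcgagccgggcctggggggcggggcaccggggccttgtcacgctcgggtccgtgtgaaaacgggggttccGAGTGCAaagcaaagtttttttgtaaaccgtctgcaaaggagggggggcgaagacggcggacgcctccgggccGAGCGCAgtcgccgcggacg
Slc30a4: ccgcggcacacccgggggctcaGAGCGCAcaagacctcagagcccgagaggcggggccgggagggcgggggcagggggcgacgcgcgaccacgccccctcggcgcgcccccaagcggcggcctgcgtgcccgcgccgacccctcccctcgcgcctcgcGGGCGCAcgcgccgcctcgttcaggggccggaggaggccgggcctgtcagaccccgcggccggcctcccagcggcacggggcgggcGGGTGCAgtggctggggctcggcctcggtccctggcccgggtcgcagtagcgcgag

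The Mt1 window held 3 cores, starting 23 bases before RefSeq's transcription start and at bases 3 and 21 after it. The Mt2 window held 4, of which 2 lay on the opposite strand. Slc30a1 held 2 and Slc30a4 held 3, all on the opposite strand. Of all 32851 promoter windows of this length, 25.7% held at least 1 core, 7.11% at least 2, 1.97% at least 3 and 0.518% at least 4. Mt3 and the second of the windows listed for Slc39a8 held 1 core each, while the windows of Mtf1 and Slc39a10 held 0. The STAT site TTCNNNGAA was found in 1 of the 2 windows of Slc39a10 and in no other member window read, against 8.30% of all windows. The antioxidant response core, TGACNNNGC or TGAGNNNGC, stood once in the Mt2 window and not in those of Mt1 and Slc30a4, against 27.8% of all windows. The windows of Mt3 and Mtf1 held 1 each. Those of Slc30a1, the first of Slc39a8 and the second of Slc39a10 held 2 each. No match between one of these motifs and another overlapped in the 4 sequences shown, and a missing match says only that these letters are not in this window. Cores outside the windows, which are placed by RefSeq's start, were not counted. The counts therefore need not cover a whole promoter. Of the 10 genes, 8 had promoter sequence in the table used, and Slc39a14 and Slc39a6 did not.

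Each library held 29482077 to 30025471 counts on genes. Levels below are CPM, the counts relative to library size after TMM scaling, and a gene was called when its adjusted p (edgeR's quasi-likelihood test, Benjamini-Hochberg over 15603 genes) was under 0.05. Defining myotube transcripts were abundant in every library, with the summed level of 8 myotube markers at 22039 to 22795 CPM in control and 19268 to 19350 CPM with OSM. Of the 8, Myh8 alone was called, lower with both OSM and LIF, at means of 3098 CPM in control, 2630 with LIF and 2706.5 with OSM. Transcripts of 6 fibroblast markers summed to 1652 to 1716 CPM in control, 1503 to 1703 with IL6, 1983 to 2046 with LIF and 2058 to 2166 with OSM, and Lum and Thy1 among them had at most 3 counts in any library. Col3a1 made up most of that sum, with means of 1433 CPM in control and 2018 with OSM (called, adjusted p 0.000373), while Col1a1 was at 309 and 169.4 CPM in control and 72.1 and 84.7 with OSM (log2 change −1.61, adjusted p 0.0858, and 0.00555 to 0.274 over its alternatives). Pdgfra was also called higher with OSM, at means of 8.92 CPM in control and 12.8 with OSM. Transcripts of 5 macrophage markers summed to 2.06 to 2.32 CPM in control, 2.77 to 2.98 with IL6, 2.69 to 2.75 with LIF and 4.09 to 4.62 with OSM, with Ptprc and Adgre1 at 3 counts or fewer throughout. Cd68, the 1 of them tested, was called higher with OSM, at means of 1.98 CPM in control and 4.05 with OSM. The 3 myoblast and satellite cell markers summed to 142.01 to 164.6 CPM in control and 166.6 to 179.3 with OSM. Most of that was Myod1, which was not called, whereas Pax7 rose with OSM by 0.39 (adjusted p 0.000852) and Myf5 by 0.82 (adjusted p 0.0316; lost with DESeq2 and without control replicate 1, either LIF library or OSM replicate 1, up to 0.273). The 4 endothelial, 4 adipocyte and 3 hepatocyte markers each summed to under 2 CPM in every library. Fabp4, the 1 adipocyte marker tested, was called higher with OSM, at means of 0.42 CPM in control and 1.37 with OSM. The part of these shifts in the results below was not tested, and in bulk RNA fewer cells of a type and less RNA per cell cannot be told apart.

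OSM raised both abundant metallothionein genes and 3 of the 4 ZIP genes, with LIF only the metallothionein genes were called, and no member was called with IL6. With OSM 5 of the 9 tested members were called, all higher, where 21.4% of all tested genes were called and 10.8% were called higher. LIF gave 2 of 9, all higher, against 7.66% of all genes called and 4.2% called higher. With IL6 the count was 0, as it was for all genes (0%), though 795 genes had an unadjusted p under 0.05 and DESeq2 called 17. The median log2 change of the 9 members was 0.37 with OSM, 0.19 with LIF and 0.047 with IL6, beside −0.0029, −0.0079 and 0.00061 over all tested genes. These comparisons with control share the same 2 control libraries. Since the members were chosen with earlier results of these data known, the counts beside the shares of all genes are a description.

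**Figure D1:**
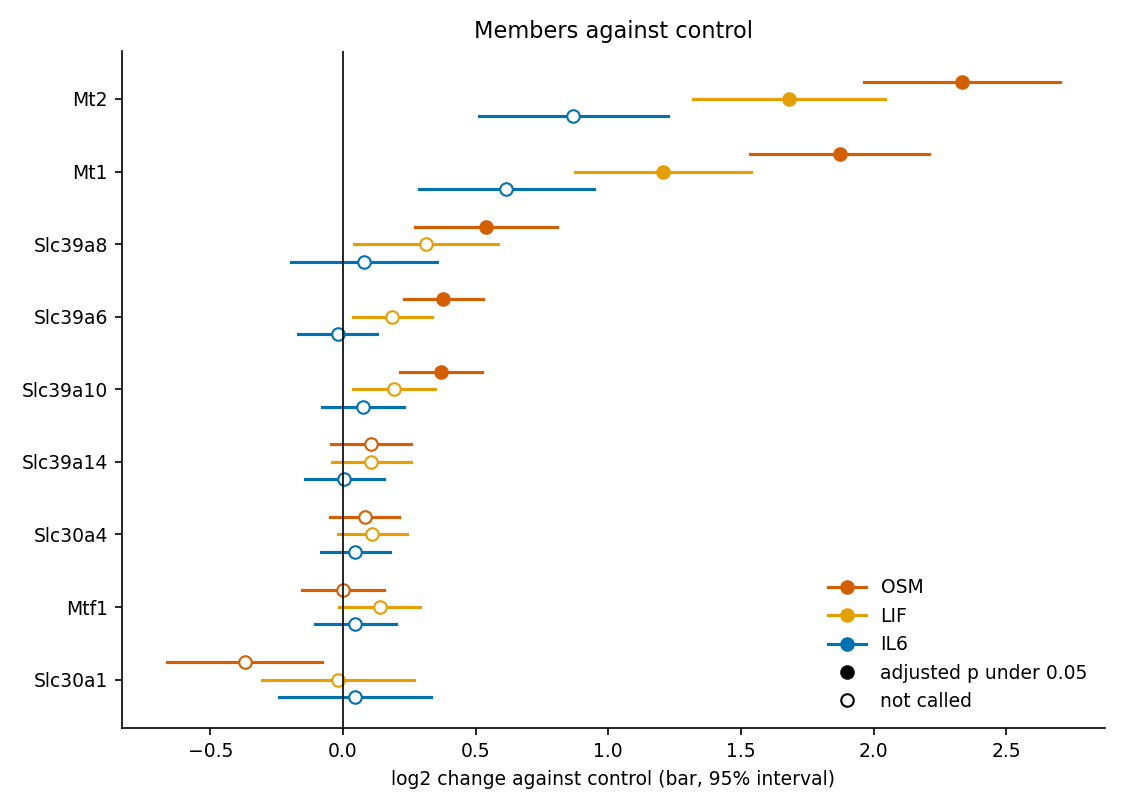
Log2 change against control (x axis) of the 9 tested members, with 95% intervals from the edgeR fit; filled points were called at an adjusted p under 0.05. Mt2 and Mt1 lie farthest from 0 under each cytokine, from 2.33 and 1.87 with OSM to 0.87 and 0.62 with IL6, and Slc30a1 with OSM is the one member at −0.37.

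Mt1 (ENSMUSG00000031765) encodes metallothionein 1, one of the pair of metallothioneins made in most tissues. It was at 150.1 and 148.8 CPM in the control libraries, 268.6 and 189.2 with IL6, 337.2 and 351.6 with LIF, and 590.7 and 503.5 with OSM. The 4 groups did not overlap, and their order was control, IL6, LIF, OSM. With 2 libraries a group this alone says little, since 60.9% of all tested genes did not overlap between OSM and control. Against control the log2 change with OSM was 1.87 (SE 0.15, adjusted p 3.17e-05), a 3.66-fold rise. With LIF it was 1.20 (SE 0.15, adjusted p 0.0018), 2.30-fold.

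Mt2 (ENSMUSG00000031762) encodes metallothionein 2, the partner of Mt1 in zinc buffering. It was at 144.0 and 137.3 CPM in control, 306.9 and 206.6 with IL6, 445.7 and 456.4 with LIF, and 752.8 and 666.04 with OSM. The same order held without overlap. The rise with OSM was 2.33 on the log2 scale (SE 0.16, adjusted p 1.43e-05), or 5.04-fold, and with LIF it was 1.68 (SE 0.16, adjusted p 0.000549), or 3.21-fold. Both rises of both genes kept their direction and their call under each of 16 alternatives, listed in the closing section. In GENCODE M21, 73.5% of the exon bases of Mt2 lie opposite the exons of Gm45774. Counts of Gm45774 ran from 30 to 71 per library and it was not called against control, whereas Mt2 had 4089 to 22005 counts. The strand setting of the counting is not given, so how reads in this overlap were assigned is uncertain for Mt2, and Mt1 has no such overlap and shares no 50-base stretch with another gene there.

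With IL6, both genes had a mean above control that the test did not separate from it. The log2 change was 0.62 for Mt1 (95% interval 0.28 to 0.95, unadjusted p 0.00242, adjusted p 0.804) and 0.87 for Mt2 (0.51 to 1.23, unadjusted p 0.000452, adjusted p 0.438). The 2 IL6 libraries stood apart from each other, with replicate 1 the higher for both genes, and both lay above both controls. The call for Mt2 depended on the analysis: DESeq2 gave an adjusted p of 0.0206, and over the 16 alternatives it ran from 5.96e-06 to 1. Without IL6 replicate 2 the Mt2 change was 1.13 and was called, and without IL6 replicate 1 it was 0.55 and was also called (adjusted p 0.0267). For Mt1 the call was made without IL6 replicate 2 (0.85, adjusted p 0.000206) and with no gene filtered out (adjusted p 5.84e-05), and not without IL6 replicate 1 (0.34), its adjusted p running from 5.84e-05 to 1.

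**Figure D2:**
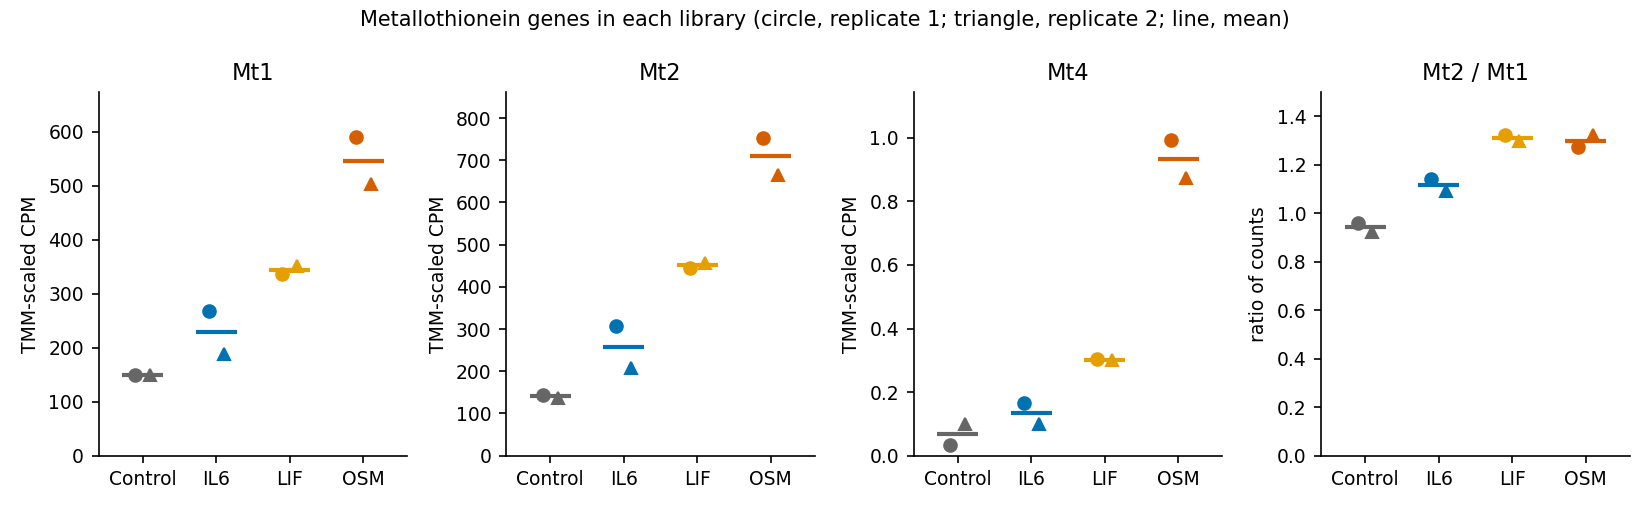
Levels of Mt1, Mt2 and Mt4 in each of the 8 libraries (TMM-scaled CPM) and the ratio of Mt2 to Mt1 counts; circles are replicate 1, triangles replicate 2 and lines group means. Mt1 and Mt2 step up from control through IL6 and LIF to OSM, and the ratio is 0.92 to 0.96 in control and 1.27 to 1.32 with LIF or OSM.

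The cytokines were then compared directly. OSM exceeded LIF by 0.67 on the log2 scale for Mt1 (SE 0.14, adjusted p 0.0228) and by 0.65 for Mt2 (SE 0.15, adjusted p 0.0352). These were the 2 of 9 members called between OSM and LIF, where 8.04% of all genes were called. Both calls were lost when either control library, either LIF library or OSM replicate 1 was left out, and that of Mt2 also without OSM replicate 2, with adjusted p up to 0.142 for Mt1 and 0.174 for Mt2, although the difference stayed at 0.55 to 0.78 for Mt1 and 0.56 to 0.74 for Mt2. OSM exceeded IL6 by 1.26 for Mt1 (SE 0.14, adjusted p 0.000449) and by 1.47 for Mt2 (SE 0.16, adjusted p 0.000302), and 5 of 9 members were called there against 15.5% of all genes (3 without OSM replicate 1).

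LIF exceeded IL6 by 0.81 for Mt2 (SE 0.15, adjusted p 0.0338), the 1 of 9 members called in a comparison where 2.78% of all genes were. The corresponding 0.59 for Mt1 did not pass (SE 0.14, adjusted p 0.0748). It was called in 4 of 16 alternatives, among them without IL6 replicate 1 (0.86, adjusted p 0.0001) and without IL6 replicate 2 (0.36, adjusted p 0.0271), and its adjusted p ran from 7.78e-06 to 0.324. The call of Mt2 was lost in a fit of these groups alone (adjusted p 0.0856) and when control replicate 1, control replicate 2, LIF replicate 1 or LIF replicate 2 was left out. Its adjusted p ran from 3.64e-06 to 0.154.

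The balance between the 2 genes also differed between groups. Counts of Mt2 divided by those of Mt1 were 0.96 and 0.923 in the control libraries, 1.14 and 1.09 with IL6, 1.32 and 1.30 with LIF, and 1.27 and 1.32 with OSM. All treated libraries were above both controls, and the LIF and OSM libraries overlapped, so Mt2 was the less counted of the pair in control and the more counted one in every treated library. This ratio is given as a description. Its absolute value, and which gene was the more counted, carry the uncertainty of read assignment over the Mt2 exons opposite Gm45774. Both genes together took 0.0287% to 0.029% of all gene counts in control and 0.117% to 0.133% with OSM.

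Mt3 (ENSMUSG00000031760), the metallothionein known mainly from brain, had 0 to 3 counts per library. Since 3 counts cannot be told from none, no difference was detectable at this depth. Mt4 (ENSMUSG00000031757), a metallothionein gene of stratified epithelia and not one of the 10, had 1 and 3 counts in control, 5 and 3 with IL6, 9 and 9 with LIF, and 29 and 26 with OSM. It passed the filter on low counts through its OSM libraries, the only ones with over 10 counts, so its difference is given as a description with no test. Summed counts with OSM were 13.7 times those in control, a ratio that rests on the 1 and 3 counts of the control libraries.

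On mouse chromosome 8 the genes stand in the order Mt4, Mt3, Mt2, Mt1 between Bbs2 and Nup93, by RefSeq's GRCm38.p6 annotation. Of the 4 protein-coding genes on each side, 7 of the 8 were tested, and none was called higher with any of the cytokines. Herpud1, a gene of the endoplasmic reticulum stress response, was the 1 called, lower with OSM by −0.48 on the log2 scale (SE 0.12, adjusted p 0.0187), a call lost without either control or either OSM library (adjusted p 0.066 to 0.141). The number called under LIF and under IL6 was 0, and log2 changes of the 7 lay between −0.48 and 0.14 with OSM and between −0.078 and 0.29 with LIF. Of all tested genes, 10.8% were called higher and 10.6% lower with OSM, while 7.66% were called with LIF and 0% with IL6. At these shares, few or no calls among 7 genes say little.

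Mtf1 (ENSMUSG00000028890), whose protein switches on metallothionein genes in response to zinc, was not called in any comparison. It was at 37.3 and 37.9 CPM in control, 39.6 and 38.2 with IL6, 40.6 and 42.2 with LIF, and 36.5 and 38.8 with OSM. Both LIF libraries were above all others. The log2 change with OSM was 0.00032 (95% interval −0.15 to 0.15), and with LIF 0.14 (−0.015 to 0.29, adjusted p 0.300). Neither was called, and the sign with OSM turned under 2 scalings or tools given in the closing section. In GENCODE M21, 8.1% of the exon bases of Mtf1 lie opposite those of 1110065P20Rik, with the uncertainty of read assignment given for Mt2.

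Among the importers, Slc39a6 (ENSMUSG00000024270), which encodes the plasma-membrane importer ZIP6, was at 43.8 and 43.3 CPM in control, 41.9 and 43.9 with IL6, 51.5 and 47.6 with LIF, and 56.1 and 57.01 with OSM. The OSM libraries were above all others. The rise with OSM was 0.38 (SE 0.069, adjusted p 0.00147), 1.30-fold, and held under all 16 alternatives.

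Slc39a10 (ENSMUSG00000025986) encodes ZIP10, the close relative with which ZIP6 is known to form a complex. Its levels were 69.6 and 64.07 CPM in control, 68.7 and 72.04 with IL6, 73.9 and 78.95 with LIF, and 90.04 and 82.7 with OSM, again highest in the OSM libraries. It rose by 0.37 with OSM (SE 0.071, adjusted p 0.00221), a call that was lost without OSM replicate 1 (0.31, adjusted p 0.0504).

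Slc39a8 (ENSMUSG00000053897) encodes ZIP8, an importer of zinc, manganese and cadmium. It was much less counted, at 6.93 and 7.59 CPM in control, 7.34 and 7.99 with IL6, 9.01 and 9.01 with LIF, and 9.89 and 11.2 with OSM. The rise with OSM was 0.54 (SE 0.12, adjusted p 0.0073), 1.45-fold. It was not called without control replicate 1 (adjusted p 0.0546) or OSM replicate 2 (adjusted p 0.0887), the range over its alternatives being 0.00139 to 0.0887.

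With LIF these 3 ZIP genes had log2 changes of 0.19 for Slc39a6 (adjusted p 0.138), 0.19 for Slc39a10 (adjusted p 0.136) and 0.31 for Slc39a8 (adjusted p 0.175). None passed, and in each the LIF mean lay between control and OSM. The direct comparison of OSM with LIF gave 0.19, 0.18 and 0.23 in the same order, none called (adjusted p 0.115, 0.169 and 0.327), so a difference between the 2 cytokines was not shown for them. A fit of the OSM and LIF libraries alone called Slc39a6 (adjusted p 0.0203; 0.0203 to 0.549 over its alternatives) and Slc39a10 (adjusted p 0.023; 0.023 to 0.67). Against IL6, OSM was higher for Slc39a6 by 0.40 (adjusted p 0.00128), for Slc39a10 by 0.30 (adjusted p 0.0119) and for Slc39a8 by 0.46 (adjusted p 0.0219). Of these, Slc39a10 was lost without OSM replicate 1, and Slc39a8 without IL6 replicate 1, without either OSM library and with DESeq2 (adjusted p 0.0556).

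**Figure D3:**
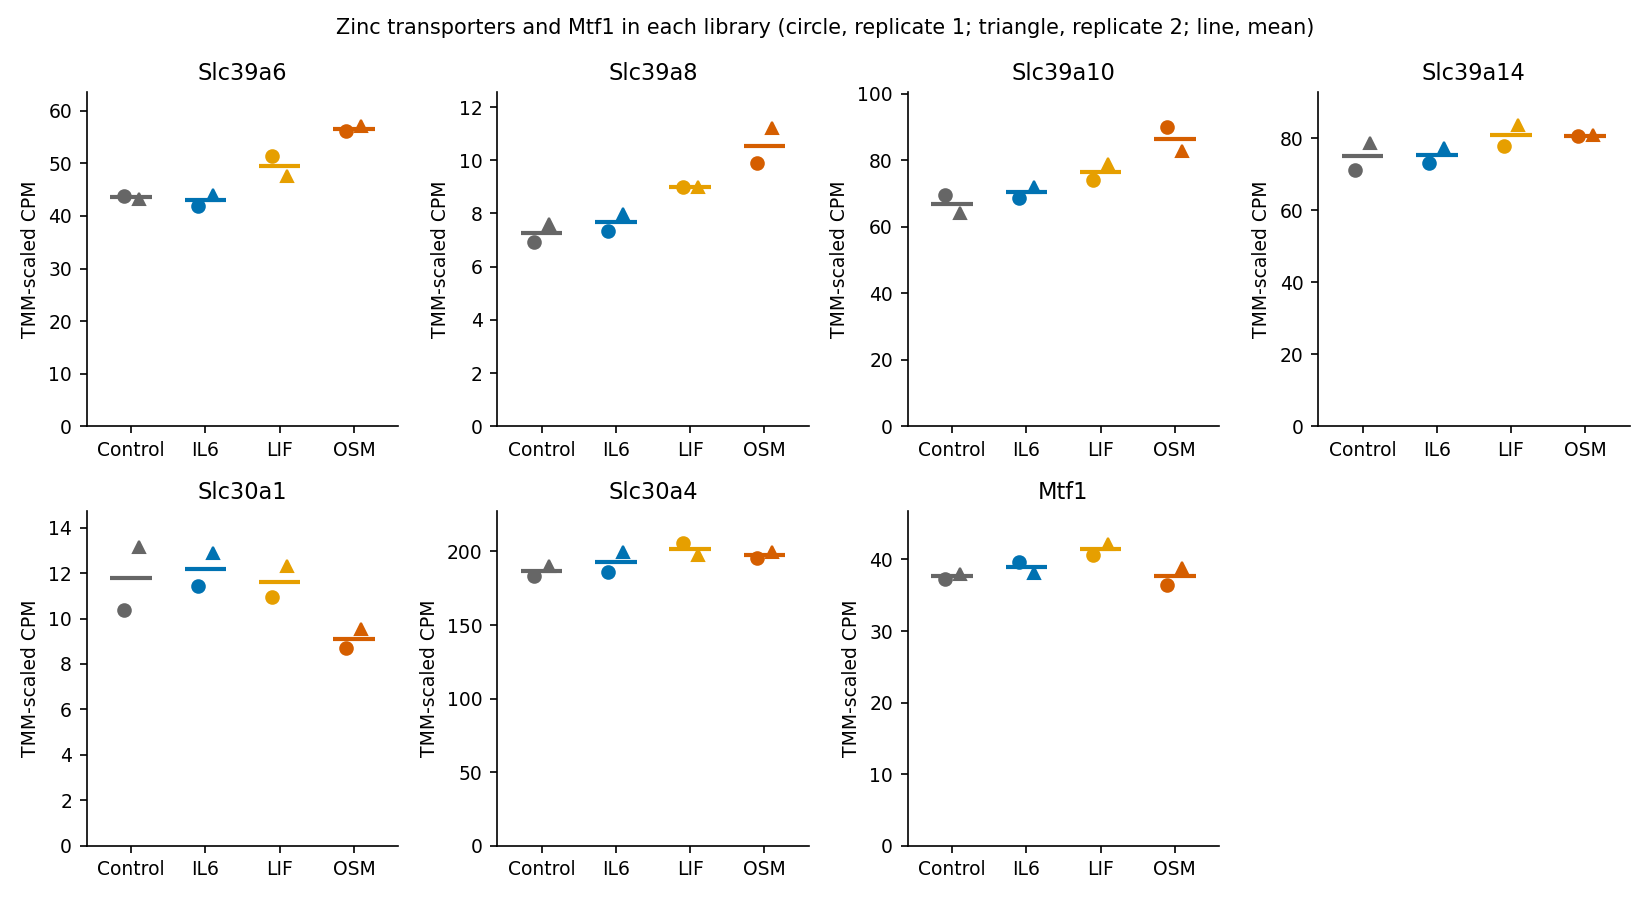
Levels of the 6 zinc transporter genes and Mtf1 in each library (TMM-scaled CPM, axes from 0); circles are replicate 1, triangles replicate 2 and lines group means. Slc39a6, Slc39a8 and Slc39a10 are highest in the OSM libraries, Slc30a1 is lowest there, and Slc39a14, Slc30a4 and Mtf1 change little.

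Slc39a14 (ENSMUSG00000022094) encodes ZIP14, the importer known for its induction by IL6 in liver and for its expression in wasting muscle. In these myotubes it was at 71.2 and 78.7 CPM in control, 73.2 and 77.3 with IL6, 77.8 and 83.7 with LIF, and 80.6 and 80.7 with OSM. The control and IL6 libraries overlapped. Its log2 change was 0.0055 with IL6 (95% interval −0.14 to 0.16), 0.11 with LIF (−0.043 to 0.26) and 0.11 with OSM (−0.044 to 0.26), and it was not called in any of the 6 comparisons or under any alternative. The upper bound with OSM corresponds to 1.19-fold.

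Of the ZnT genes, Slc30a1 (ENSMUSG00000037434), which encodes the plasma-membrane exporter ZnT1, was at 10.4 and 13.2 CPM in control, 11.4 and 12.9 with IL6, 10.96 and 12.3 with LIF, and 8.69 and 9.53 with OSM. Both OSM libraries were below all others. Its log2 change with OSM was −0.37 (95% interval −0.66 to −0.078), which did not pass (unadjusted p 0.0169, adjusted p 0.0703), and over the 16 alternatives the adjusted p ran from 0.0222 to 0.463, under 0.05 in 5 of them. Without control replicate 2 the value was −0.18. In GENCODE M21, 8.92% of its exon bases lie opposite those of 1700034H15Rik, with the same uncertainty. Against IL6 the OSM value was −0.42 (adjusted p 0.054), under 0.05 in 6 of 16 alternatives, among them those without control replicate 1, control replicate 2 or IL6 replicate 1, with a range of 0.0128 to 0.305. Against LIF it was −0.35 (adjusted p 0.150), called in the fit of those groups alone, with a range of 0.0289 to 0.558.

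Slc30a4 (ENSMUSG00000005802) encodes ZnT4, which loads zinc into intracellular vesicles. It was at 183.06 and 190.4 CPM in control, 185.9 and 199.7 with IL6, 205.6 and 197.7 with LIF, and 195.5 and 199.8 with OSM, and was not called in any comparison. Its log2 change with OSM was 0.082 (95% interval −0.048 to 0.21). Of its exon bases, 2.37% lie opposite those of 4930417H01Rik in GENCODE M21, with the same uncertainty.

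Levels of different genes were compared per kilobase of the longest principal transcript in GENCODE M21. In control the order was Mt2 at 275.3 ± 9.28 CPM per kb (SD, n = 2), Mt1 at 272.2 ± 1.66, Slc30a4 at 34.2 ± 0.951, Slc39a14 at 15.2 ± 1.07, Slc39a10 at 12.2 ± 0.714, Slc39a6 at 11.2 ± 0.103, Mtf1 at 4.93 ± 0.0568, Slc30a1 at 2.25 ± 0.373 and Slc39a8 at 2.05 ± 0.132. The libraries overlapped between Mt2 and Mt1 and between Slc30a1 and Slc39a8, so these neighbours did not differ beyond their spread. The level of Mt2 also carries the uncertainty of read assignment over its exons opposite Gm45774. So do those of Mtf1, Slc30a1 and Slc30a4, over the smaller shares of their exons given above. With OSM, Mt2 stood at 1388 ± 120 CPM per kb and Mt1 at 996.6 ± 112.4, and Slc39a8 at 2.99 ± 0.264 lay above Slc30a1 at 1.74 ± 0.113. Slc39a14 at 16.4 ± 0.0201 and Slc39a10 at 15.7 ± 0.942 overlapped there. When length was taken as all exon bases of a gene, Mt1 in control was at 119.9 against 239.2 for Mt2, and Slc39a8 with OSM was at 1.38 against 1.74 for Slc30a1. In control Slc39a14 was then at 7.11, below Slc39a10 at 10.97 and Slc39a6 at 10.69. The order of Mt1 and Mt2, of Slc39a8 and Slc30a1, and of Slc39a14 beside Slc39a10 and Slc39a6 rests on the gene model.

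Other genes of zinc transport gave a mixed picture. Of 18 further Slc30a and Slc39a genes, 14 were tested. With OSM 3 were called, all higher (Slc30a7, Slc39a1 and Slc39a13), where 21.4% of all tested genes were called and 10.8% called higher. With LIF 2 were called, both higher (Slc30a7 and Slc39a1), against 7.66% and 4.2% of all genes, and with IL6 0. None was called lower. Their median log2 change was −0.13 with OSM, −0.018 with LIF and −0.033 with IL6. Slc39a13, whose product ZIP13 is a Golgi and vesicle transporter needed in connective tissue, was at 55.2 and 54.6 CPM in control, 61.7 and 57.4 with IL6, 59.2 and 60.9 with LIF, and 91.7 and 84.09 with OSM. The OSM libraries stood apart from all others.

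The rise of Slc39a13 with OSM was 0.68 (SE 0.068, adjusted p 9.46e-06), and its level with OSM was above that with LIF by 0.55 (adjusted p 0.000183). Slc39a1, which encodes the widely expressed surface importer ZIP1, was at 108.05 and 105.98 CPM in control, 116.8 and 127.1 with IL6, 149.2 and 150.8 with LIF, and 152.2 and 149.4 with OSM. It rose by 0.49 with both OSM (adjusted p 5.74e-05) and LIF (adjusted p 0.000332), and the difference between them was 0.0076 (95% interval −0.12 to 0.14). Slc30a7, which encodes ZnT7, a transporter that carries zinc into the Golgi, rose by 0.39 with OSM (adjusted p 0.000676) and by 0.31 with LIF (adjusted p 0.00982), the latter lost without LIF replicate 1 (adjusted p 0.141) or LIF replicate 2 (0.0665).

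Genes for copper and iron handling were read as a comparison. Of 19 listed, 17 were tested, and 3 were called with OSM (2 higher, 1 lower), 1 with LIF and 0 with IL6. With 21.4% of all tested genes called with OSM and 7.66% with LIF, these counts are near the background. The medians were −0.13, −0.12 and −0.047. Cp, which encodes the copper-carrying ferroxidase ceruloplasmin, went from 61.2 and 70.05 CPM in control to 110.2 and 91.6 with IL6, 134.7 and 148.4 with LIF, and 178.7 and 184.3 with OSM. Like Mt1 and Mt2 it had the order control, IL6, LIF, OSM without overlap, rising by 1.47 with OSM (SE 0.093, adjusted p 2.71e-07) and by 1.11 with LIF (SE 0.092, adjusted p 2.23e-05). Atp7b, a copper-exporting ATPase gene, rose by 0.60 with OSM (adjusted p 0.0275). Slc40a1, which encodes the iron exporter ferroportin, fell by 0.59 with OSM (adjusted p 0.0149). Both of these calls were lost without control replicate 2, OSM replicate 1 or OSM replicate 2, with adjusted p of up to 0.189 for Atp7b and 0.121 for Slc40a1. The OSM count for this list was 1 without OSM replicate 1 or OSM replicate 2, and 6 without IL6 replicate 1 or IL6 replicate 2. The LIF count was 2 without control replicate 2 or either IL6 library, and the IL6 count was 1 without control replicate 2 and 2 without IL6 replicate 2.

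Metallothionein genes are known targets of STAT3, of the glucocorticoid receptor and of the oxidative-stress factor NRF2, so textbook targets of each were counted. These lists were chosen with earlier results of these data known. The counts are therefore a description, and the part of any regulator was not tested. Of 10 gp130-STAT3 targets, 8 were called higher with OSM (10.8% of all tested genes were), 8 with LIF (4.2%) and 0 with IL6, with medians of 0.67, 0.66 and 0.20 (5 with LIF without LIF replicate 2, and 3 with IL6 without IL6 replicate 2). Timp1, an inhibitor of matrix metalloproteinases, Socs3, the feedback inhibitor, and Il4ra, a receptor gene, had the lowest adjusted p with OSM. Timp1 rose by 1.81 with OSM (adjusted p 5e-09) and 0.81 with LIF, Il4ra by 1.78 (adjusted p 1.53e-08) and 1.06, and Socs3 by 1.37 (adjusted p 1.38e-08) and 1.47. NRF2 targets went the other way. Of 8, 7 were called lower with OSM (10.6% of all tested genes were) and 3 with LIF (3.46%), none was called higher, and the medians were −0.66 and −0.31. The OSM count was 4 without OSM replicate 2, the LIF count 1 without LIF replicate 1 or LIF replicate 2, and the IL6 count 1 without IL6 replicate 2 and 0 in the fit of all libraries. Txnrd1, a thioredoxin reductase gene, fell by 0.67 with OSM (adjusted p 8.51e-06), Nqo1, a quinone reductase gene, by 1.79 (adjusted p 3.31e-05) and Gclm, for glutathione synthesis, by 0.80 (adjusted p 0.000517). Hmox1, the remaining one of the 8, had a log2 change of 0.10 (adjusted p 0.417).

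Glucocorticoid targets were split. Of 7 tested, 3 were called higher with OSM (Errfi1, Sgk1 and Klf9; 10.8% of all tested genes were called higher) and 0 lower, and with LIF 1 was called (7.66% of all genes were), Tsc22d3, which encodes GILZ and was lower by −0.30 on the log2 scale (adjusted p 0.013). The Tsc22d3 call was lost without control replicate 1, LIF replicate 1 or LIF replicate 2 (adjusted p up to 0.154), and that of Klf9 (0.29, adjusted p 0.0467) without either control, either LIF or either OSM library (up to 0.219) and under upper-quartile scaling (0.0547). The OSM count was 5 without IL6 replicate 1 or IL6 replicate 2. Errfi1, a feedback inhibitor of the EGF receptor, rose by 1.01 with OSM (adjusted p 8.05e-06). Fkbp5, among the most used markers of glucocorticoid action, had log2 changes of −0.26 with OSM (adjusted p 0.0847) and 0.012 with LIF (adjusted p 0.970), neither called. Without IL6 replicate 1 (adjusted p 0.0285) or IL6 replicate 2 (0.0288) the OSM value of Fkbp5 was called, within 0.021 to 0.475 over its alternatives. All of these targets respond to other signals too.

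**Figure D4:**
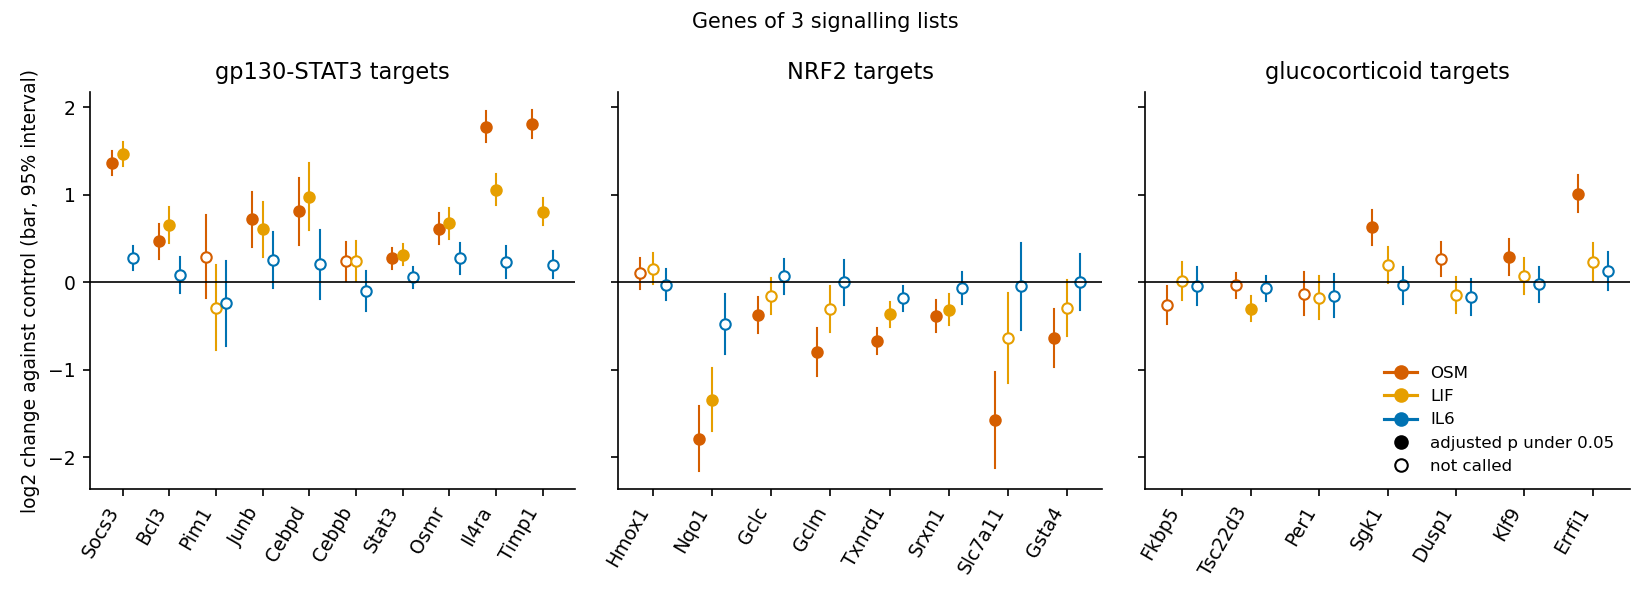
Log2 change against control, with 95% intervals from the edgeR fit, of each tested gene of 3 lists of textbook targets; filled points were called. With OSM, 8 of 10 gp130-STAT3 targets were called higher and 7 of 8 NRF2 targets lower. The lists were chosen with earlier results of these data known.

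Over the 8 libraries, the genes most alike Mt1 in log2 CPM were Mt2 (Pearson r 0.996), Ampd3 (0.995), Tsc22d1 (0.995), Mrgpre (0.995) and Man1a (0.994). Those most alike Mt2 were Man1a (0.998), Mt1 (0.996), Nos2 (0.993), Mmp19 (0.993) and Lox (0.992). Man1a, which encodes a Golgi mannosidase, went from a mean of 28.6 CPM in control to 48.07 with IL6, 86.7 with LIF and 129.3 with OSM, and Lox, the lysyl oxidase gene, from 353.9 to 573.5, 759.9 and 1169 CPM. Among the members, r with Mt2 was 0.90 for Slc39a10, 0.88 for Slc39a8, 0.86 for Slc39a6, 0.61 for Slc39a14, 0.57 for Slc30a4, 0.22 for Mtf1 and −0.66 for Slc30a1. For Slc39a14 the most alike were Peli3 (0.98), Dusp2 (0.97), Dnajc18 (0.97), Ppp1r35 (0.97) and Cnksr3 (0.96). The points are the same 8 libraries, with their shared depth and scaling, in 4 groups.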

How the data were processed

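The authors deposited 1 table of raw counts per Ensembl gene for each library. Per the submitters' processing notes, the tools named are Trim Galore 0.6.5, STAR 2.7.3a, HTSeq 0.11.1 and DESeq2 1.34.0, and the build is GRCm39. The library kit was a stranded mRNA kit, per the labels. The strand setting of HTSeq and the annotation release are not given in the sources used here. The 5 summary lines, 11.7% to 12.7% of the alignments, stayed out of library sizes and tests. Symbols came from GENCODE M21 (GRCm38), which names 52093 of the 53647 identifiers. Because the builds differ, that annotation served only for names, lengths, exon overlaps and shared stretches of sequence. Gene order came from RefSeq's annotation.

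Genes were filtered with filterByExpr (minimum count 10), scaled by TMM and fitted in edgeR 4.0.16 (R 4.3.3) with 1 mean per group over all 8 libraries, robust glmQLFit and glmQLFTest, 6 contrasts, Benjamini-Hochberg within each. The script was also run on simulated counts with the same spread for every gene. That run checks the code, not how well the model describes these libraries. SE is the log2 change over the square root of F. Shares of 50-base stretches were computed from M21 transcripts. Alternatives used DESeq2 1.42.0 and limma 3.58.1 (voom).

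The members and the gene lists were chosen with earlier results of these data known. All 10 members are named, and of each further list the called genes with the smallest adjusted p under OSM (up to 6, or up to 3 for the target lists); Mt4, Tsc22d3, Fkbp5, Hmox1, the cell type markers given singly and the genes beside the metallothionein cluster were named after their values were seen. The genes most alike were ranked among those with a mean of at least 100 counts and a symbol not of the Gm or Rik kind.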

Additional observations from a re-analysis of the deposited data

How the results depend on the processing

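Each result was recomputed under 16 alternatives: DESeq2, DESeq2 size factors in edgeR, upper-quartile scaling, no filter on low counts, a mean of at least 50 counts, limma-voom, a fit of only the groups compared, the replicate block, and each library left out in turn, where a lone library is assumed to vary like the other groups. The rises of Mt1 and Mt2 with OSM and with LIF and of Slc39a6 with OSM kept their direction and their call in all 16. Members called with OSM numbered 4 to 6 over these and with LIF 2 throughout. The cause of the changes below was not tested.

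Upper-quartile scaling called 5 copper and iron genes with OSM. Without the filter on low counts 1 member, 1 copper and iron gene and 1 NRF2 target were called with IL6, 2 copper and iron genes with LIF, and 2 members between LIF and IL6. DESeq2 called 1 member and 1 copper and iron gene with IL6. With only the groups compared, 5 members were called between OSM and LIF, 0 between LIF and IL6, and 2 copper and iron genes with LIF. Same-numbered libraries deviated together weakly (correlations of 0.0071 to 0.18 over the 6 pairs of groups, not every one above 0.1), so the numbers were not taken to pair the samples. The replicate block gave 2 members called between LIF and IL6, 2 copper and iron genes with LIF and 1 with IL6, and 5 glucocorticoid targets with OSM, and left the other 17 counts within 1.5 times their value. Under it Slc30a1 was called with OSM (adjusted p 0.0222) and against IL6 (0.0128), and Mt1 between LIF and IL6 (0.0198).

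Leaving out single libraries gave 1 to 6 copper and iron genes called with OSM, 1 to 2 with LIF and 0 to 2 with IL6, 1 to 2 other zinc transporters with LIF, and 0 to 2 members with IL6, 0 to 2 between OSM and LIF, 3 to 6 between OSM and IL6 and 0 to 2 between LIF and IL6. For the target lists the ranges were 5 to 8 gp130-STAT3 targets with LIF and 0 to 3 with IL6, 4 to 7 NRF2 targets with OSM, 1 to 4 with LIF and 0 to 1 with IL6, and 2 to 5 glucocorticoid targets with OSM, 0 to 2 with LIF and 0 to 1 with IL6.

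Signs turned only for changes near 0. Mtf1 with OSM was −0.018 under upper-quartile scaling and −0.00021 under limma-voom, and −0.044 to 0.043 with libraries left out. Slc39a14 between OSM and LIF was 0.0036 with no filter, 0.0030 at a mean of at least 50 counts and 0.0020 in the fit of those groups, and −0.054 to 0.052 with libraries left out. Slc39a1 between OSM and LIF was −0.0064 under upper-quartile scaling and −0.0060 to 0.021 with libraries left out. With libraries left out, values ran from −0.18 to 0.17 for Slc30a1 with LIF, −0.11 to 0.23 with IL6 and −0.15 to 0.023 between LIF and IL6, from −0.065 to 0.082 for Slc39a14 with IL6, from −0.054 to 0.014 for Slc39a6 with IL6, from −0.0067 to 0.097 for Slc30a4 with IL6 and −0.015 to 0.089 between OSM and IL6, and from −0.040 to 0.070 for Fkbp5 with LIF.

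For Slc39a14, Mtf1 and Slc30a4 the 95% interval, not the lack of a call, bounds what 2 libraries a group allow. Mt3 and Mt4 are limited by depth.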
